A study of Mus musculus with 203 samples.

Results

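The 8 genes described here make, package, recycle and break down acetylcholine, and were followed across single neurons of the mouse nucleus ambiguus. They are Chat, Slc18a3, Slc5a7, Slc10a4, Ache, Bche, Colq and Prima1, chosen by name as the genes of cholinergic synthesis, transport and breakdown, and all 8 had reads among the 24029 genes of the deposited count table. The neurons came from wild-type C57BL/6 mice, given as C57BL/6NCrl in the study's methods, and were back-labeled with the tracer cholera toxin B, injected either into the space around the heart or into the cricothyroid muscle of the larynx. Labeled cells were aspirated from acute slices at postnatal days 2 to 4 and sequenced with Smart-seq2, a full-length method without molecular identifiers. The deposited annotation assigns 53 heart-labeled neurons to the type ACP (ambiguus cardiopulmonary), 98 heart-labeled neurons to the type ACV (ambiguus cardiovascular) and 52 neurons to the laryngeal motor neurons. All groups share strain, tracer and the age range given. Per the study's methods, heart and larynx were injected in separate mice. Cardiac and laryngeal neurons thus differ in labeled target, surgery and animals together, and these cannot be told apart. Within the heart-labeled neurons, ACP and ACV differ in a cluster assignment made from these same counts. No label names the animal a neuron came from. Each type is therefore a single sample here, differences between types have no replicate check, no test was run, and every spread is that between neurons.

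Cholinergic neurons join choline to acetyl groups through choline acetyltransferase (Chat) and load the product into synaptic vesicles through the vesicular acetylcholine transporter (Slc18a3), which is driven by a proton pump. After release, acetylcholinesterase (Ache) splits the transmitter, and the high-affinity choline transporter (Slc5a7) takes choline back into the terminal. Butyrylcholinesterase (Bche) is a related enzyme of broader substrate range, the collagen-like tail Colq tethers cholinesterases at the neuromuscular junction, and the small membrane protein Prima1 anchors them in brain. Slc10a4 is a vesicle protein of the bile acid transporter family, with no settled substrate, found in cholinergic and monoaminergic neurons. Every motor and parasympathetic preganglionic neuron of the nucleus ambiguus uses acetylcholine, the former on striated muscle and the latter on ganglion cells.

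Levels are counts per 1000000 counts outside Rn45s (CPM), Rn45s being the gene of the ribosomal RNA precursor, which took a mean of 37% of counts in ACP, 38.5% in ACV and 58.2% in laryngeal neurons. The median neuron had 1115375 counts outside Rn45s in ACP, 1120512 in ACV and 560892 in laryngeal neurons, so low genes were counted less deeply in the laryngeal neurons. Total counts ran from 542162 to 3292763 per neuron. No 2 neurons had identical counts, and the closest pair still differed beyond counting noise, with a chi-square of 15.4 per degree of freedom. In 39 neurons, 11 ACP and 28 ACV, Apoe exceeded the 1800 counts given in the study's methods as a limit. Those methods remove neurons above it before clustering, and whether the limit refers to the deposited counts is not stated. Below, neurons above the Apoe limit are those with more than 1800 deposited counts. Slc18a3 was under 10 CPM in 6 neurons, 5 laryngeal and 1 ACV. The 5 laryngeal neurons, picked by this limit, had Slc18a3 at 9.89 CPM or less. Among them the motor neuron factor Isl1 lay between 0 and 92.2 CPM (median 69.8). Gad1, the enzyme of GABA synthesis, lay between 42.1 and 413 CPM (median 211). The ACV neuron of the 6 carried 170.04 CPM of Isl1 and no Gad1. In the remaining 47 laryngeal neurons the median was 1647 for Slc18a3, 214 for Isl1 and 3.84 for Gad1. Their Isl1 ran from 0, in 3 neurons, to 672 CPM and their Gad1 from 0 to 571 CPM, so these ranges overlapped. Values below include these 6 neurons unless stated otherwise, and some are also given without them. In the 47 laryngeal neurons the mean was 529 for Slc5a7 and 1206 for Ache, which are given below for all 52.

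Of the 8 genes, 3 were past 2-fold between ACP and ACV neurons (Slc10a4, Bche and Colq), 3 between ACP and laryngeal neurons (the same names) and 2 between ACV and laryngeal neurons (Slc18a3 and Bche). A gene is called past 2-fold when the log2 ratio of mean CPM, with 1 added to each mean, is at least 1 in size. Among all genes with a read in 10% or more of either type's neurons, 13.9% of 13356 were past 2-fold between ACP and ACV, 18.2% of 13256 between ACP and laryngeal and 19.6% of 13297 between ACV and laryngeal neurons. With ACP and ACV pooled as cardiac neurons, Bche alone of the 8 was past 2-fold against laryngeal neurons, where 15.9% of 13202 genes were. By direction, the 3 genes of the first comparison were all lower in ACP than in ACV neurons, as were 6.31% of all those genes, and none was higher, as were 7.55%. Against laryngeal neurons 1 gene was higher in ACP (8.09% of all) and 2 lower (10.1%), 1 was higher in ACV (7.87%) and 1 lower (11.8%), and 1 was higher in the pooled cardiac neurons (7.07%) and none lower (8.8%). The comparisons share neurons and are not independent of each other. The median log2 ratio of the 8 genes was -0.29 for ACP against ACV, -0.41 for ACP against laryngeal and -0.21 for ACV against laryngeal neurons, beside medians between -0.03 and 0.00 over all those genes. Together the 8 genes took a mean of 0.309% of the counts outside Rn45s in ACP, 0.305% in ACV and 0.422% in laryngeal neurons.

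**Figure D1:**
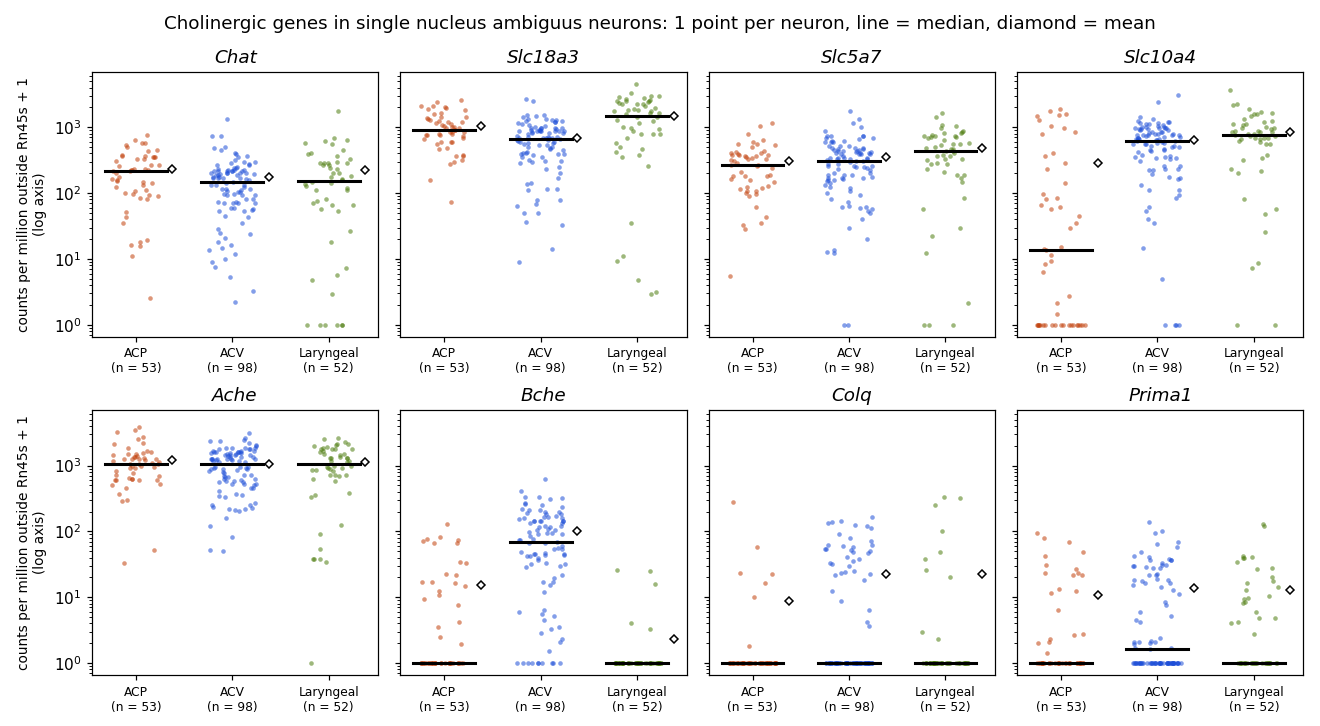
CPM outside Rn45s plus 1 (log axis) of the 8 cholinergic genes, with 1 point for each of 53 ACP, 98 ACV and 52 laryngeal neurons, a line at the median and a diamond at the mean. Ache medians lie between 1047 and 1067 in the 3 types, whereas Slc10a4 has a median of 12.7 in ACP and Bche is above 0 at the median in ACV neurons alone.

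Chat and Slc18a3 lie at a single locus on chromosome 14, where the 1 exon block of Slc18a3 (mm10, 32462438 to 32464850, minus strand) sits inside the span of Chat (32408203 to 32465989, minus strand). Their exons share 0 bases in GENCODE vM21, so whole exonic reads can be told apart. Reads of unspliced Chat RNA over the Slc18a3 exon cannot, and their part in the Slc18a3 counts was not tested. Slc10a4 (chromosome 5, 73006883 to 73012955, plus strand) and Ache (chromosome 5, 137287519 to 137294466, plus strand) lie apart on chromosome 5. The RefSeq promoter windows of these 4 genes are shown because Slc18a3, Ache and Slc10a4 covaried across neurons and Chat followed them less. Slc5a7 covaried with Slc18a3, Ache and Slc10a4 as well, but its window is not printed. Each window of build GRCm38.p6 runs 5′ to 3′ over 250 bases before and 50 bases after the start. Capitals mark the GC box GGGCGG, or CCGCCC on the other strand, and the cAMP response element core TGACG, or CGTCA on the other strand.
Chat, chr14:32465860-32466159, minus strand: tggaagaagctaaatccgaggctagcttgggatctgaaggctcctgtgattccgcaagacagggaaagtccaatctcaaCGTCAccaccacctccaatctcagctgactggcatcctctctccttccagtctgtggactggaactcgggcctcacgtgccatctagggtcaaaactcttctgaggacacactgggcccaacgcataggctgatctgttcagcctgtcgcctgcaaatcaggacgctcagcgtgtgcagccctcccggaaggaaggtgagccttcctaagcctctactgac
Slc18a3, chr14:32464801-32465100, minus strand: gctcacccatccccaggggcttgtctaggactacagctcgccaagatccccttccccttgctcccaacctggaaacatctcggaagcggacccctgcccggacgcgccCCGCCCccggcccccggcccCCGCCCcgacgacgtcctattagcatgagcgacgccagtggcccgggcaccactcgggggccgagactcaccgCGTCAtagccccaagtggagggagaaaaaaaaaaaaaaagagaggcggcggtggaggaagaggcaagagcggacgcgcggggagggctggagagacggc
Slc10a4, chr5:73006654-73006953, plus strand: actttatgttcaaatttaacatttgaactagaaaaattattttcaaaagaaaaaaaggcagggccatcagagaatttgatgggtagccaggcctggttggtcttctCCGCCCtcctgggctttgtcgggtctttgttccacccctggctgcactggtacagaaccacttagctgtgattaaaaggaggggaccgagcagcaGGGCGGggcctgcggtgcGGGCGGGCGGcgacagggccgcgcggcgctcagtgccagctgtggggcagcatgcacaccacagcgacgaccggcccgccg
Ache, chr5:137288004-137288303, plus strand: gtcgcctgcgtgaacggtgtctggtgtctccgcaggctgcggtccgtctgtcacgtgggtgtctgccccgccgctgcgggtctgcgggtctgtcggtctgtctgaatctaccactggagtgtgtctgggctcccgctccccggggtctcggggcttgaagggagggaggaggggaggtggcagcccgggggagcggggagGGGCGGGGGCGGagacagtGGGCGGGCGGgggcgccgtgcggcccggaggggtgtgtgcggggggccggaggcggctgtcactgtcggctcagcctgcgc
The Slc18a3 window held 2 GC boxes and 1 cAMP response element core, whereas the Chat window held 0 GC boxes and 1 cAMP response element core. The windows of Slc10a4 and Ache held 4 GC boxes each, with overlapping matches counted separately, and no cAMP response element core. Of 32851 promoter windows of the same length, 35.7% held a GC box and 20.8% a cAMP response element core. GC content was 55.7% for Chat, 67% for Slc18a3, 57.3% for Slc10a4 and 74% for Ache. RefSeq windows were matched for 7 of the 8 genes, all but Colq. Of the windows not printed, that of Slc5a7 held 0 GC boxes, as did that of Chat, and Slc5a7 covaried with Slc18a3, Ache and Slc10a4. The Bche window held 2 GC boxes and the Prima1 window 1. GC content was 44.7% for Slc5a7, 39.3% for Bche and 71.7% for Prima1. A relation of these motifs to covariation was not tested.

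Chat was found in all 53 ACP and all 98 ACV neurons and in 46 of 52 laryngeal neurons. In ACP neurons its lowest, median and highest levels were 1.53, 216 and 763 CPM. The same values were 1.22, 144.2 and 1354 in ACV neurons and 0, 150.8 and 1782 in laryngeal neurons. The ranges overlapped almost entirely, and the interquartile ranges of neighbors in the order ACP, laryngeal, ACV overlapped. Means were 232 ± 179.7 (SD, n = 53), 175.7 ± 183.3 (SD, n = 98) and 226 ± 288 (SD, n = 52) in ACP, ACV and laryngeal neurons, and no comparison reached 2-fold. Of the 6 laryngeal neurons without a Chat read, 2 were among the 5 low in Slc18a3. The median of the other 47 laryngeal neurons was 175.9.

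Slc18a3 had at least 1 read in every neuron, and its level was highest in laryngeal neurons. Its lowest, median and highest levels were 73.1, 917 and 2616 CPM in ACP neurons. They were 7.97, 673 and 2658 in ACV neurons and 1.92, 1492 and 4555 in laryngeal neurons. The median fell in the order laryngeal, ACP, ACV, the interquartile ranges of neighbors overlapped, and 75.0% of laryngeal neurons were above the ACV median, against 5.10% of ACV neurons above the laryngeal median. Means were 1501 ± 1044 (SD, n = 52) in laryngeal, 1035 ± 592 (SD, n = 53) in ACP and 690.3 ± 485 (SD, n = 98) in ACV neurons, so the laryngeal mean was 2.17-fold the ACV mean and 1.45-fold the ACP mean. On the log2 scale ACV neurons were -1.12 against laryngeal neurons, or -1.25 without the 6 neurons low in Slc18a3, a step that raises the laryngeal mean by construction. The value was -0.99 without the neurons above the Apoe limit and -0.61 when totals included Rn45s, both short of 2-fold, and -1.40 among neurons with at most 50% of counts on Rn45s. Totals with Rn45s moved the median of all genes to 0.45 in this comparison.

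Slc10a4 was low in most ACP neurons and high in the others, unlike in the other types. It was found in 34 of 53 ACP neurons, 94 of 98 ACV neurons and 50 of 52 laryngeal neurons. Its lowest, median and highest levels were 0, 12.7 and 1880.2 CPM in ACP neurons. They were 0, 619.6 and 3078 in ACV neurons and 0, 764 and 3719 in laryngeal neurons. Of the ACP neurons, 25 were below 10 CPM, 13 lay from 10 up to 100 and 15 were at 100 or more, 7 of these at 1000 or more. By contrast 86 of 98 ACV and 44 of 52 laryngeal neurons were at 100 or more. The ACP interquartile range, 0 to 232, did not overlap that of ACV neurons, 273 to 891, although whole ranges did. Means were 287 ± 533 (SD, n = 53) in ACP, 629 ± 478 (SD, n = 98) in ACV and 860.0 ± 693 (SD, n = 52) in laryngeal neurons. ACP neurons were therefore at -1.13 against ACV and -1.58 against laryngeal neurons on the log2 scale of means, and at -5.50 and -5.80 on that of medians. With each neuron thinned to 200000 counts, the share of neurons with an Slc10a4 read was 54.7% in ACP, 95.9% in ACV and 97.96% in the 49 laryngeal neurons deep enough. The exact 95% interval of the thinned ACP share was 40.5% to 68.4%, which covers counting error only. Without the neurons above the Apoe limit the Slc10a4 means were 254 in 42 ACP and 671 in 70 ACV neurons, and the mean of the 47 laryngeal neurons not low in Slc18a3 was 947.

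**Figure D2:**
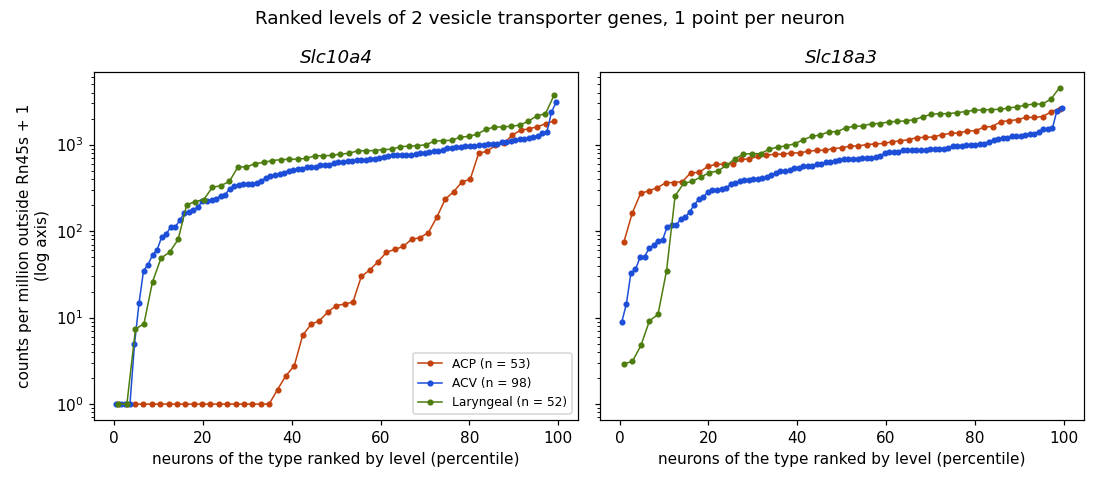
CPM outside Rn45s plus 1 (log axis) of Slc10a4 and Slc18a3 against each neuron's rank percentile within its type, with 1 point per neuron. For Slc10a4 the ACP curve starts with 19 neurons at 0 and meets the other curves only at its top end, whereas for Slc18a3 it lies above the ACV curve over most of its length.

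Slc5a7 was found in 53 of 53 ACP, 96 of 98 ACV and 49 of 52 laryngeal neurons. Its lowest, median and highest levels were 4.43, 269 and 1164 CPM in ACP neurons. They were 0, 306 and 1789 in ACV neurons and 0, 432 and 1664 in laryngeal neurons. The order of medians was laryngeal, ACV, ACP, with overlapping interquartile ranges between neighbors and no comparison past 2-fold. Means were 305 ± 239.5 (SD, n = 53), 349 ± 295 (SD, n = 98) and 481 ± 368 (SD, n = 52) in ACP, ACV and laryngeal neurons, and the laryngeal mean was 1.58-fold the ACP mean. Slc5a7 lies on chromosome 17 (54273590 to 54299034, minus strand).

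Ache was the most even of the 8 genes between types. Its lowest, median and highest levels were 31.8, 1058 and 3885 CPM in ACP neurons. They were 48.5, 1047 and 3150.3 in ACV neurons and 0, 1067 and 2615 in laryngeal neurons, where 1 of 52 had no read. Means of 1204 ± 802 (SD, n = 53), 1071 ± 659 (SD, n = 98) and 1115 ± 709 (SD, n = 52) gave log2 ratios between -0.06 and 0.17 in the 3 comparisons of types. Of the ACV and of the laryngeal neurons, 50% were above the other's median. In GENCODE vM21, 2.12% of the exon bases of Ache are shared with the antisense gene Gm42456, which has no row in the count table.

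Bche separated the types most widely and was detected mainly in heart-labeled neurons. It was found in 88 of 98 ACV, 23 of 53 ACP and 5 of 52 laryngeal neurons. Its lowest, median and highest levels were 0, 67.3 and 632 CPM in ACV neurons. They were 0, 0 and 129.3 in ACP neurons and 0, 0 and 24.9 in laryngeal neurons. Of the ACV neurons, 32 were above every ACP neuron and 71 above every laryngeal neuron, and the interquartile range of ACV neurons, 16.7 to 143.7, did not overlap that of ACP neurons, 0 to 15.4. Means were 99.4 ± 107.01 (SD, n = 98) in ACV, 14.6 ± 28.02 (SD, n = 53) in ACP and 1.33 ± 5.14 (SD, n = 52) in laryngeal neurons, the last being 0.873 without the highest neuron. The log2 ratio was -2.69 for ACP against ACV, 2.74 for ACP against laryngeal and 5.43 for ACV against laryngeal neurons, with 1 added to each mean. The study used Bche to mark ACV neurons, and the clusters were drawn from these counts, so the gap between ACP and ACV is no independent evidence. ACP and laryngeal neurons both had a median of 0, and their difference rested on the 23 ACP neurons with reads.

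The order of Bche was the same at a common depth and among neurons with few microglial reads. With each neuron thinned to 200000 counts, 82.7% of ACV, 35.8% of ACP and 6.12% of the 49 laryngeal neurons deep enough kept a Bche read. The 7 microglial markers were all past 2-fold lower in ACP than in ACV neurons, as were 6.31% of all genes. Their summed levels spanned 0 to 648 CPM in ACP (median 95.7), 0 to 7151 in ACV (median 101.4) and 0 to 2475 in laryngeal neurons (median 91.7). None of the 7 was at 0 in any type. Among neurons with at most 50 summed microglial CPM, mean Bche was 116.7 in 21 ACV, 14.7 in 20 ACP and 0.684 in 22 laryngeal neurons. The Spearman correlation of Bche with the microglial sum was -0.05 across ACV neurons. In the neurons low in microglial counts mean Slc10a4 was 486 in ACV, 142.4 in ACP and 752 in laryngeal neurons.

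Colq and Prima1, whose products anchor cholinesterases, were sparse in every type. Colq was found in 7 of 53 ACP, 37 of 98 ACV and 10 of 52 laryngeal neurons. Its median was 0 in every type, and its highest levels were 277, 164.7 and 329 CPM in ACP, ACV and laryngeal neurons. A single ACP neuron carried 68.7% of the summed ACP level. Mean levels were 7.61 ± 38.8 (SD, n = 53) in ACP, 21.1 ± 38.1 (SD, n = 98) in ACV and 21.8 ± 72.02 (SD, n = 52) in laryngeal neurons, giving log2 ratios of -1.36 for ACP against ACV and -1.40 for ACP against laryngeal neurons. Without the highest neuron of each type those ratios were -2.59 and -2.29, while ACP against laryngeal turned to 0.05 among neurons with at most 50% of counts on Rn45s, of which only 15 were laryngeal. In GENCODE vM21, 5.23% of the exon bases of Colq are shared with Gm49387 on the same strand, and that gene has no row in the count table. Prima1 was found in 21 of 53 ACP, 50 of 98 ACV and 25 of 52 laryngeal neurons, with means of 9.73 ± 20.6 (SD, n = 53), 12.98 ± 23.6 (SD, n = 98) and 12.1 ± 25.4 (SD, n = 52). No comparison of Prima1 reached 2-fold.

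**Figure D3:**
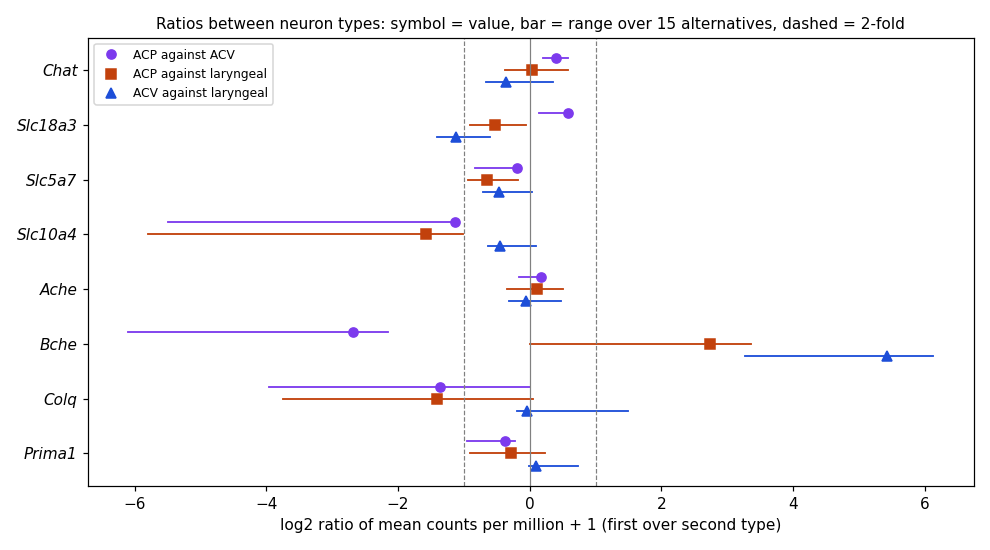
Log2 ratios of mean CPM plus 1 between types for the 8 genes, with symbols for the value reported, bars for the range over 15 alternative settings and dashed lines at 2-fold. Slc10a4 stays below the lower line in both ACP comparisons and Bche stays beyond a line in both ACV comparisons, whereas the bars of Chat, Slc5a7, Ache and Prima1 stay within the lines.

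Levels of different genes were compared per kilobase of exon, within each neuron, with 1 CPM per kilobase added. Slc18a3 exceeded Chat in 52 of 53 ACP, 94 of 98 ACV and 50 of 52 laryngeal neurons, and the ratio at the median neuron was 8.74, 8.68 and 12.3. Slc5a7 was below Slc18a3 in 53 of 53 ACP, 92 of 98 ACV and 49 of 52 laryngeal neurons. The ratio of Slc10a4 to Slc18a3 at the median neuron was 0.032 in ACP, 1.04 in ACV and 0.762 in laryngeal neurons, so Slc10a4 was also low in ACP neurons relative to another vesicle gene of the same cell. Ache exceeded Bche in every ACP neuron, in 97 of 98 ACV neurons and in 51 of 52 laryngeal neurons, with 0 reads of both in the other laryngeal neuron. The Ache to Bche ratio at the median neuron was 128.9 in ACP, 19.7 in ACV and 205 in laryngeal neurons. Reads of Chat, Slc18a3 and Slc5a7 were found together in 53 of 53 ACP, 96 of 98 ACV and 44 of 52 laryngeal neurons. With Slc10a4 added the count was 34 in ACP, 92 in ACV and 44 in laryngeal neurons.

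Within types, Slc18a3, Ache, Slc10a4 and Slc5a7 covaried across neurons, with rho between 0.24 and 0.83 over all their pairs, and Chat had rho between -0.22 and 0.37 with them. Spearman correlations are given as descriptions. Their points share library depth, Rn45s share and the totals used for scaling. Slc18a3 and Ache had rho of 0.65 across 53 ACP, 0.65 across 98 ACV and 0.79 across 52 laryngeal neurons, and 0.75 across the 47 laryngeal neurons not low in Slc18a3. Slc10a4 and Ache had rho of 0.38, 0.72 and 0.69 in ACP, ACV and laryngeal neurons. Slc5a7 and Slc10a4 had rho of 0.83 in laryngeal neurons, 0.77 without the 5 low neurons, against 0.24 in ACP and 0.39 in ACV neurons. Chat and Slc18a3, although nested at a single locus, had rho of 0.05 in ACP, 0.35 in ACV and 0.37 in laryngeal neurons, and 0.21 in the 47 laryngeal neurons. Across ACV neurons Ache, Slc18a3 and Slc10a4 were also related inversely to the Rn45s share (rho of -0.49, -0.42 and -0.43) and directly to counts outside Rn45s (rho of 0.57, 0.49 and 0.41), and the part of depth in their covariation was not tested. In laryngeal neurons Ache, Slc18a3 and Slc10a4 had rho of -0.38, -0.37 and -0.22 with the Rn45s share, and in ACP neurons between -0.14 and 0.26.

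**Figure D4:**
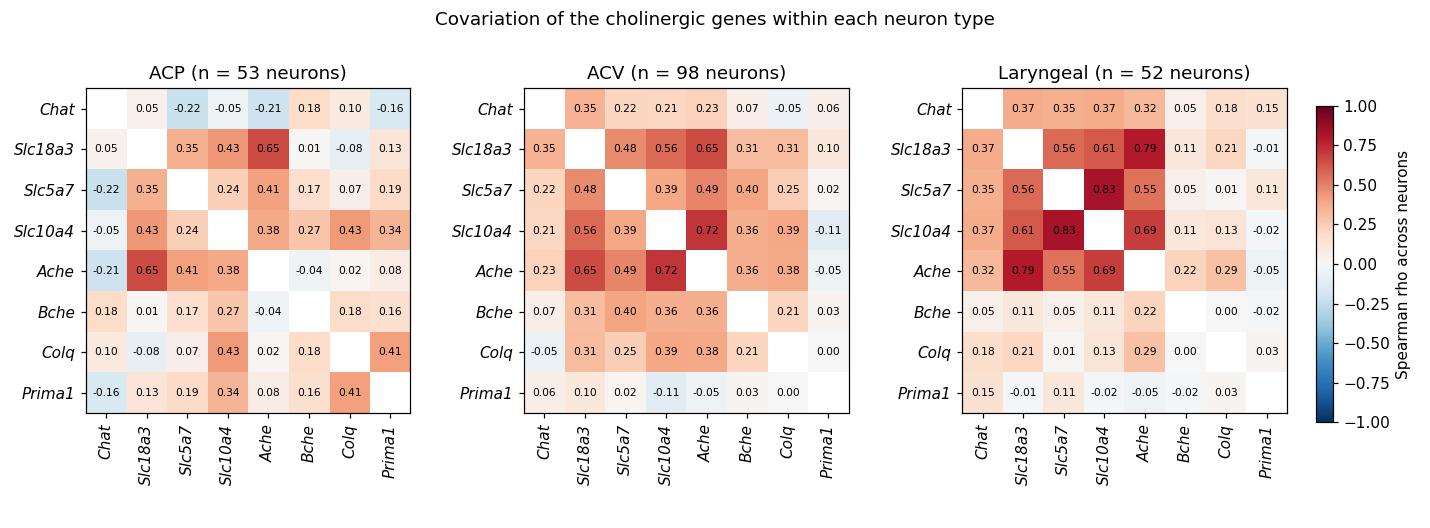
Spearman rho between the 8 cholinergic genes across 53 ACP, 98 ACV and 52 laryngeal neurons, with color and number giving rho. The highest value is that of Slc18a3 with Ache in ACP (0.65), of Slc10a4 with Ache in ACV (0.72) and of Slc5a7 with Slc10a4 in laryngeal neurons (0.83), and no value of Chat is above 0.37.

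**Figure D5:**
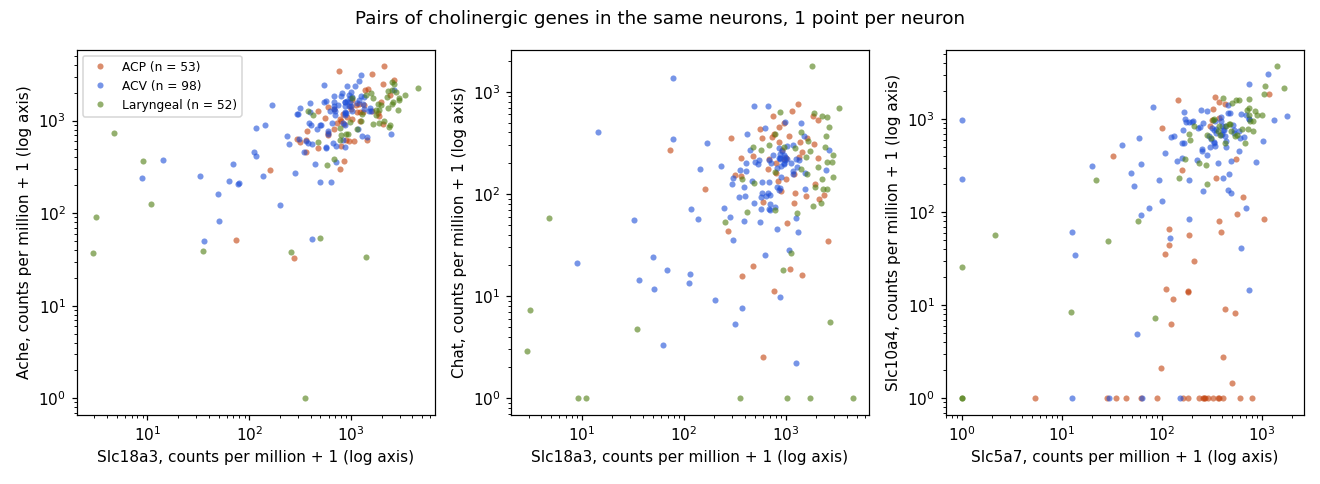
CPM plus 1 (log axes) of pairs of cholinergic genes in the same neurons, with 1 point per neuron and color for type. Slc18a3 and Ache are high together (rho from 0.65 to 0.79 within types), Slc18a3 and Chat less so (0.05 to 0.37), and in the last panel many ACP neurons have Slc5a7 above 100 with Slc10a4 at 0.

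Genes most like each member were ranked by mean within-type rho over the 3 types, among 7721 genes detected in at least 50% of neurons. Ache was the gene most like Slc18a3, with a mean rho of 0.70, followed by Ecel1, a membrane metalloprotease needed for motor axon branching, at 0.64 and Ndfip1, an adaptor of ubiquitin ligases, at 0.63. For Ache the leading genes were Serinc1 at 0.72, Slc18a3 at 0.70 and Atp1b1, a sodium pump subunit, at 0.69. For Slc5a7 they were Atp6v0a1, a subunit of the vesicle proton pump, at 0.58, the adhesion molecule Mcam at 0.57 and the synaptotagmin Syt11 at 0.56. Chat had lower values, led by Ndrg4 at 0.45, the neurofilament gene Nefl at 0.40 and Arhgap36 at 0.39, and Slc18a3 was 71st in its ranking. For Bche values were lower still, the leading genes being Cd55 at 0.30, the lactate transporter Slc16a3 at 0.28 and Reep5 at 0.27. These means include laryngeal neurons, of which 5 of 52 had a Bche read. There Cd55 had rho of 0.44, against 0.23 in ACP and 0.24 in ACV neurons. The genes most like Slc10a4, looked up after values were seen, were Ecel1 at 0.72, Ache at 0.59 and Chodl, a motor neuron lectin, at 0.59. Ecel1 followed Slc10a4 within ACP neurons at rho of 0.69, and also within ACV at 0.69 and laryngeal neurons at 0.78. Calb1, which encodes the calcium buffer calbindin, ran opposite to Slc10a4 in ACP neurons (rho of -0.46) and had rho of -0.02 with it in ACV and -0.24 in laryngeal neurons.

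Genes that feed the cycle were described as lists, naming those furthest past 2-fold and the gene with the highest average of the 3 type means in CPM, without scaling for length. Of 17 genes of choline uptake and phospholipid turnover, 14 were detected widely enough, and 1 of them was past 2-fold between ACP and ACV, 3 between ACP and laryngeal and 4 between ACV and laryngeal neurons. Over all genes, 13.9%, 18.2% and 19.6% were past 2-fold in these comparisons, in the same order. Slc44a5, a choline transporter-like gene, had means of 56.7 CPM in laryngeal, 11.1 in ACP and 7.79 in ACV neurons, log2 ratios of -2.26 and -2.71 for the cardiac types against laryngeal neurons. Slc44a1, the plasma membrane choline transporter and the gene past 2-fold between ACP and ACV, had means of 29.1, 7.35 and 16.4 in the same order, and its log2 ratio of -1.05 for ACP against ACV was -0.98 without the highest neuron of each type. Chka, a choline kinase, had means of 116.8, 75.9 and 55.8. Pld1, which releases choline from phosphatidylcholine, was low throughout, with means of 1.16 in laryngeal (0.702 without the highest neuron), 4.41 in ACP and 4.63 in ACV neurons. The transporter Slc44a2 had the highest average of the list, with means between 91.2 and 100.05, although Chka was above it in laryngeal neurons. Median log2 ratios of the list were 0.30 for ACP against ACV, -0.06 for ACP against laryngeal and -0.26 for ACV against laryngeal neurons.

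Of 13 genes of acetyl-CoA supply, 2 were past 2-fold between ACP and ACV and 3 in each cardiac type against laryngeal neurons. The shares of all genes were 13.9% for ACP against ACV, 18.2% for ACP against laryngeal and 19.6% for ACV against laryngeal neurons. Acly, the enzyme that makes cytosolic acetyl-CoA from citrate, had the highest average of the list, with medians of 1187 CPM in laryngeal, 394 in ACP and 461 in ACV neurons. Its log2 ratio to laryngeal neurons was -1.24 in ACP and -1.31 in ACV neurons, and -0.74 and -0.82 with totals that included Rn45s. On medians its lead held in laryngeal neurons alone, since Slc25a1, the mitochondrial citrate carrier, was at 499 in ACP and Pdhb, a pyruvate dehydrogenase subunit, at 493 in ACV neurons. Acss1, the mitochondrial acetyl-CoA synthetase, had means of 13.1 in ACP, 5.95 in ACV and 1.46 in laryngeal neurons. Without the highest neuron of each type its ACP and laryngeal means were 8.21 and 0.620, and its log2 ratio for ACP against ACV went from 1.02 to 0.61. Slc16a7, a monocarboxylate transporter, had means of 16.5, 11.9 and 3.96 in ACP, ACV and laryngeal neurons. The acetyl-CoA transporter Slc33a1 was at 1.10 for ACP against ACV on the log2 scale, and at 0.99 without the highest neuron of each type. Median log2 ratios of this list were 0.01, -0.20 and -0.13 for ACP against ACV, ACP against laryngeal and ACV against laryngeal neurons. All 16 subunits of the vesicle proton pump, which supplies the gradient for Slc18a3, were within 2-fold in the 4 comparisons. Their medians of log2 ratios were -0.02, 0.33 and 0.31, and Atp6v0e2 had the highest average of the list, with means of 1061 in ACP, 983 in ACV and 867 in laryngeal neurons. Atp6v1b2 followed closely and was higher in ACV neurons, at 1219. Atp6v0c was near the floor, with means of 0.442 in ACP, 0.565 in ACV and 0.391 in laryngeal neurons. With 1 added to each mean, it had little room to pass 2-fold.

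Of 18 genes of other transmitters, 7 of 16 widely enough detected were past 2-fold between ACP and ACV, 8 of 16 between ACP and laryngeal and 6 of 13 between ACV and laryngeal neurons, with medians of -0.01, -0.08 and -0.44. For this list and the motor neuron identity list below, the shares of all genes in these comparisons were 13.9%, 18.2% and 19.6%. Slc17a6, a vesicular glutamate transporter, had the highest average of the list, with medians of 7.83 in ACP, 7.45 in ACV and 74.7 in laryngeal neurons. In ACP neurons the vesicular monoamine transporter Slc18a2 was above it, with a median of 28.2. Ddc, an enzyme of monoamine synthesis, had means of 38.1 in ACV, 13.9 in ACP (8.72 without the highest neuron) and 4.92 in laryngeal neurons. Th, the first enzyme of catecholamine synthesis, was found in 8 laryngeal neurons with a mean of 31.5 (17.6 without the highest neuron), against 4.12 in ACP and 5.79 in ACV neurons, and its ratio turned the other way among neurons with at most 50% of counts on Rn45s. The serotonin transporter Slc6a4 had means of 9.15 in ACP, 0.061 in ACV and 4.395 in laryngeal neurons, which were 5.37, 0.028 and 2.12 without the highest neuron of each type. Motor neuron identity genes were past 2-fold in 1 of 7 between ACP and ACV, 4 of 7 between ACP and laryngeal and 3 of 7 between ACV and laryngeal neurons, with medians of 0.35, -0.48 and 0.00. They included the factor Phox2a (means of 32.6 in laryngeal, 2.29 in ACP and 1.202 in ACV neurons), the repressor Tbx3 (9.01, 81.5 and 63.6), the related Tbx2 (24.7, 78.3 and 12.3) and the neurofilament gene Nefh (828, 339 and 179.6). Without the highest neuron the Tbx2 mean in ACV was 5.86 and the Tbx3 mean in laryngeal neurons 5.47. Prph had the highest average of the list, with medians of 1851, 1297 and 2138 in laryngeal, ACP and ACV neurons.

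Markers of the cells themselves and of neighbors were set beside these values. The 5 neuronal markers were within 2-fold in all comparisons. Of the cranial motor neuron markers, Isl1 and the cholinergic member Chat were within 2-fold in all comparisons, and the member Slc18a3 was past 2-fold in ACV against laryngeal neurons alone. Summed astrocyte markers had medians of 1921, 2253 and 2776 CPM in ACP, ACV and laryngeal neurons and ranges of 200.8 to 9869, 128.98 to 31507 and 933 to 16169.9. Summed oligodendrocyte lineage markers had medians of 221, 160.4 and 259, and their highest neuron reached 7615, 8711 and 4493. Past 2-fold were 1 of 7 astrocyte and none of 9 oligodendrocyte markers between ACP and ACV, 1 and 2 between ACP and laryngeal, and 1 and 3 between ACV and laryngeal neurons. Of all genes, 13.9%, 18.2% and 19.6% were past 2-fold in the same comparisons. Summed vessel markers had a median of 0 in each type, with Flt1 at 0 in ACP neurons, and summed skeletal muscle markers had medians between 4.77 and 7.69, with Tnnt3 at 0 in laryngeal neurons. The part of these transcripts in the differences of the cholinergic genes was not tested beyond the subsets given for Bche, Slc10a4 and Slc18a3.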

How the data were processed

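Single labeled neurons were sequenced by Smart-seq2 on 75 bp paired-end libraries. Per the study's methods the authors trimmed reads with Skewer, aligned them to mm10 with STAR (version 2.6.1d per the labels) and deposited raw read counts per gene symbol for each neuron. The counting program, gene annotation and strand setting are not given in the sources used here. The table the authors deposited as CPM holds a score without a usable unit, because all (100%) of the nonzero entries match counts divided by the totals of other neurons taken in turn (relative tolerance 1e-06), and column sums run from 242377 to 3031765. It served for that check alone.

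Each neuron's counts were scaled to 1000000 counts outside Rn45s (CPM), and types were taken from the deposited annotation. Of the 24029 genes, 4493 had no count. Type means were compared as log2 ratios with a pseudocount of 1 and a fold of 2 as the limit, over genes with 1 or more reads in 10% or more of either type's neurons. Because no label names the animal, each type is 1 sample, and neither a test nor a standard error was computed. Shares have exact Clopper-Pearson 95% intervals, and reads without molecular identifiers are not independent molecules, so intervals cover counting error only. The ratio and correlation steps were tested on simulated data. Lengths are unions of GENCODE vM21 exons, and promoters are from RefSeq.

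The members and lists were chosen with earlier results of these data known. Named were all 8 members, the 3 genes with the highest mean within-type rho for Chat, Slc18a3, Slc5a7, Ache and Bche, and from each list (choline handling, acetyl-CoA supply, vesicle proton pump, other transmitters, motor neuron identity) at most 4 genes past 2-fold with the largest ratios plus the gene with the highest average of the 3 type means. Marker lists covered neurons, cranial motor neurons, astrocytes, oligodendrocyte lineage, microglia, vessels and skeletal muscle. One gene of the motor neuron lists is not reported here. Alternatives were totals with Rn45s, TMM (edgeR 4.0.16) and poscounts (DESeq2 1.42.0) scaling in R 4.3.3, pseudocounts of 0.1 and 10, summed counts, medians, thinning to 200000 counts, limits on Apoe, total counts and Rn45s share, and leaving out the highest neurons. Python 3.11.15, numpy 2.4.6, pandas 2.3.3, scipy 1.17.1 and matplotlib 3.10.9 were used.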

Additional observations from a re-analysis of the deposited data

How the results depend on the processing

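Of the calls past 2-fold, Slc10a4 in both ACP comparisons and Bche in ACP against ACV, ACV against laryngeal and cardiac against laryngeal neurons stayed past 2-fold in the same direction under all 15 alternatives. Slc10a4 ranged from -5.50 to -1.10 for ACP against ACV and from -5.80 to -1.02 for ACP against laryngeal neurons, and Bche from -6.09 to -2.16 for ACP against ACV and from 3.27 to 6.13 for ACV against laryngeal neurons. Bche in ACP against laryngeal neurons was 0.00 on medians, which left 1 of the 8 genes past 2-fold there (22.5% of all genes), and 1.12 to 3.35 otherwise. Slc18a3 in ACV against laryngeal neurons was past 2-fold in 12 of 15, and the count of genes past 2-fold there was 1 with totals including Rn45s, with at most 1800 counts of Apoe and with at most 50 summed microglial CPM (23.01%, 22.4% and 32.9% of all genes). In cardiac against laryngeal neurons the count was 3 with at most 50% of counts on Rn45s, 2 without the 6 neurons low in Slc18a3, 2 with at most 50 summed microglial CPM and 3 at a fold of 1.5, beside 21.9%, 17.1%, 27.8% and 36.2% of all genes. Colq was past 2-fold in 13 of 15 alternatives for ACP against ACV and in 11 of 15 for ACP against laryngeal neurons, with -0.82 and -0.85 at a pseudocount of 10 and 0.051, the opposite direction, for ACP against laryngeal neurons with at most 50% of counts on Rn45s, where 15 laryngeal neurons remained. The causes were not tested.

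The limits on Apoe at 1800, on microglial counts and on Slc18a3, and leaving out the highest neuron for the listed genes, were added after the data were seen. No paired analysis was possible because the labels name no animal and number no replicates. With a single sample per type, none of the differences has a check between animals. The shallowest neuron, a laryngeal one, had 118492 counts outside Rn45s. Thinning to 200000 counts took the share of neurons with a Prima1 read from 39.6% to 30.2% in ACP and from 51.02% to 43.9% in ACV neurons. That of Colq went from 13.2% to 11.3% and from 37.8% to 37.8%. Laryngeal shares were of all 52 neurons before and of the 49 deep enough after thinning. They were 48.1% and 40.8% for Prima1 and 19.2% and 20.4% for Colq, with 10 neurons holding a Colq read in both. Totals including Rn45s moved the median of all genes to 0.52 for ACP against laryngeal, 0.45 for ACV against laryngeal and 0.49 for cardiac against laryngeal neurons, and raised the share of higher calls from 44.5% to 86.6%, from 40.1% to 80.4% and from 44.5% to 86.3%.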
